A study of Homo sapiens with 14 samples.

Results

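CCN1, CCN2, CCN5 and THBS1 encode secreted proteins of the extracellular matrix, and ANKRD1, AMOTL2, YAP1, WWTR1, TEAD1 and TEAD4 encode targets and components of the Hippo-YAP pathway. These 10 genes, of 62757 in the count files, were matched by Ensembl ID and followed over 14 RNA-seq libraries in 7 groups of 2. All libraries are labelled as OVCAR3 or A2780, human ovarian cancer cell lines. OVCAR3 gave the group labelled OVCAR3-DDP, its derivative selected for resistance to cisplatin, and its parental group, labelled WT. A2780 gave A2780-DDP and parental A2780 in the same way. The other groups carry the label OVCAR3-DDP and a short hairpin: sh1 and sh2 against ADAR1, an RNA-editing enzyme encoded by ADAR, and shNC as the hairpin control. Not given in the sources used here are doses, passages, the time after hairpin delivery and whether a derivative is 1 clone. Nothing says that the 2 libraries of a group came from separate cultures, so every p-value measures only the spread between these libraries, which may be technical.

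In the Hippo pathway a kinase cascade (STK3 and STK4, then LATS1 and LATS2) phosphorylates the coactivators YAP1 and TAZ, the product of WWTR1, and holds them in the cytoplasm. Coactivators that reach the nucleus bind DNA through TEAD transcription factors. CCN1 (also CYR61), CCN2 (CTGF), ANKRD1 and AMOTL2 are among the target genes most often read as signs of YAP and TAZ activity. CCN1 and CCN2 are matricellular ligands of integrins, CCN5 (WISP2) is a family member that lacks the C-terminal domain of the others, and THBS1 is a matricellular protein that binds CD36, CD47 and integrins and can activate latent TGF-beta. AMOTL2 is an angiomotin that binds YAP1 and restrains it. Activity of YAP1 and TAZ depends on phosphorylation and location, which RNA levels do not measure.

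The unit of level is CPM, in which the counts of each library are scaled to the same total assigned to genes, with mean ± SD over n = 2. Between 20428538 and 49115255 counts per library were assigned to genes. Fold changes are log2 values from edgeR with an approximate standard error (SE). They use TMM scaling, so they can differ somewhat from the ratio of CPM means. A gene was called where the Benjamini-Hochberg adjusted p over all genes tested was under 0.05.

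The OVCAR3-DDP-labelled libraries stood apart from the rest of the OVCAR3 series. The summed level of 10 ovarian carcinoma markers was 539 to 575 CPM in them, with 4 of the 10 above 1 CPM. It was 4634 to 4931 CPM in shNC, which carries the same label plus a control hairpin, and 3847 to 4216 CPM in parental OVCAR3. Keratin 7 (KRT7) averaged 0.246 CPM in the OVCAR3-DDP-labelled libraries, 1006 CPM in shNC and 1083 CPM in parental OVCAR3. Of the 9 markers tested, 8 were called lower in the OVCAR3-DDP-labelled libraries and 1 higher, against 35.2% and 33.4% of all genes. The 1 higher was WT1, named after its value was seen. It was at 19.0 CPM in the OVCAR3-DDP-labelled libraries and at 0 counts in shNC and parental OVCAR3. Whether a mix-up of samples or cell lines underlies these values was not tested, and it bears on every OVCAR3-DDP value given here. Both A2780 groups lacked most of these markers too, with sums of 278 to 306 CPM in A2780-DDP and 198 to 205 CPM in parental A2780. Summed leukocyte markers ran from 0.916 to 5.89 CPM and endothelial markers from 0.128 to 3.09 CPM over all libraries. CD3E was at 0 in all 7 groups. Fibroblast markers summed to 79.4 to 149 CPM in the OVCAR3 series and 545 to 640.4 CPM in A2780, where the collagen gene COL3A1 led, and PDGFRA was under 1 CPM in all 7 groups. The value of shNC against parental OVCAR3, which does not use the OVCAR3-DDP-labelled libraries, is given beside the OVCAR3 result of each member. It joins the resistance label and the hairpin, which cannot be told apart in it. Mitochondrially encoded genes also summed to 9250 to 9474 CPM in shNC and 25003 to 27207 CPM in parental OVCAR3, and their part was not tested.

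ADAR, the hairpins' target, checked the hairpin labels. It stood at 272 ± 24.5 CPM with sh1 and 115 ± 0.989 CPM with sh2, against 423 ± 34.1 CPM with shNC (n = 2 each), and both hairpins were called lower.

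The stretch before the start of CCN2 and THBS1 is shown because these genes moved in opposite directions in A2780-DDP and because both hold the core motif of TEAD factors. Sequences are from RefSeq on GRCh38.p14, cover the 250 bases before the annotated start and are written 5′ to 3′ on the strand of the gene. Capitals mark GGAATG, the core to which TEAD factors bind. The CCN2 window is chr6:131951373-131951622 on the minus strand and the THBS1 window is chr15:39580829-39581078 on the plus strand.
CCN2: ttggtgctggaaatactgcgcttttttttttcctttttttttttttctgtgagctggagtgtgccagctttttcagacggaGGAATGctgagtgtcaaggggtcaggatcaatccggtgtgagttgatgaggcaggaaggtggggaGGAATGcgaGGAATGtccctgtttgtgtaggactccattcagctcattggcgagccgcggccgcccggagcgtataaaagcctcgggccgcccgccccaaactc
THBS1: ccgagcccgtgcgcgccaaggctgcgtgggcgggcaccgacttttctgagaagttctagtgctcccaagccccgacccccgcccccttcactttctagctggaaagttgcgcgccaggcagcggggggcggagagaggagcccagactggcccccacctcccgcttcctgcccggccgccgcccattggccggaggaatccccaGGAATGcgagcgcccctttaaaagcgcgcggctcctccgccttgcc

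CCN2 held 3 copies of GGAATG, which began 169, 104 and 95 bases before the start. The THBS1 window held 1, which began 46 bases before the start. Of 35116 RefSeq windows of 250 bases, 11.9% held GGAATG on either strand, 0.94% held at least 2 copies and 0.0826% at least 3. ANKRD1 held 2 copies and 1 match to the AP-1 motif TGANTCA, which 6.57% of windows held, and none of these matches overlapped another. YAP1 held 1 copy of GGAATG, and neither window of WWTR1 had one on either strand. AMOTL2 had 1 on the opposite strand, which reads CATTCC on the strand of the gene, before the second of its annotated starts. No member's window held a CArG box, the motif of serum response factor, which was in 1.16% of windows. Windows were given for 6 of the 10 genes, not for CCN1, CCN5, TEAD1 or TEAD4. A match is a string of letters and shows no binding.

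**Figure D1:**
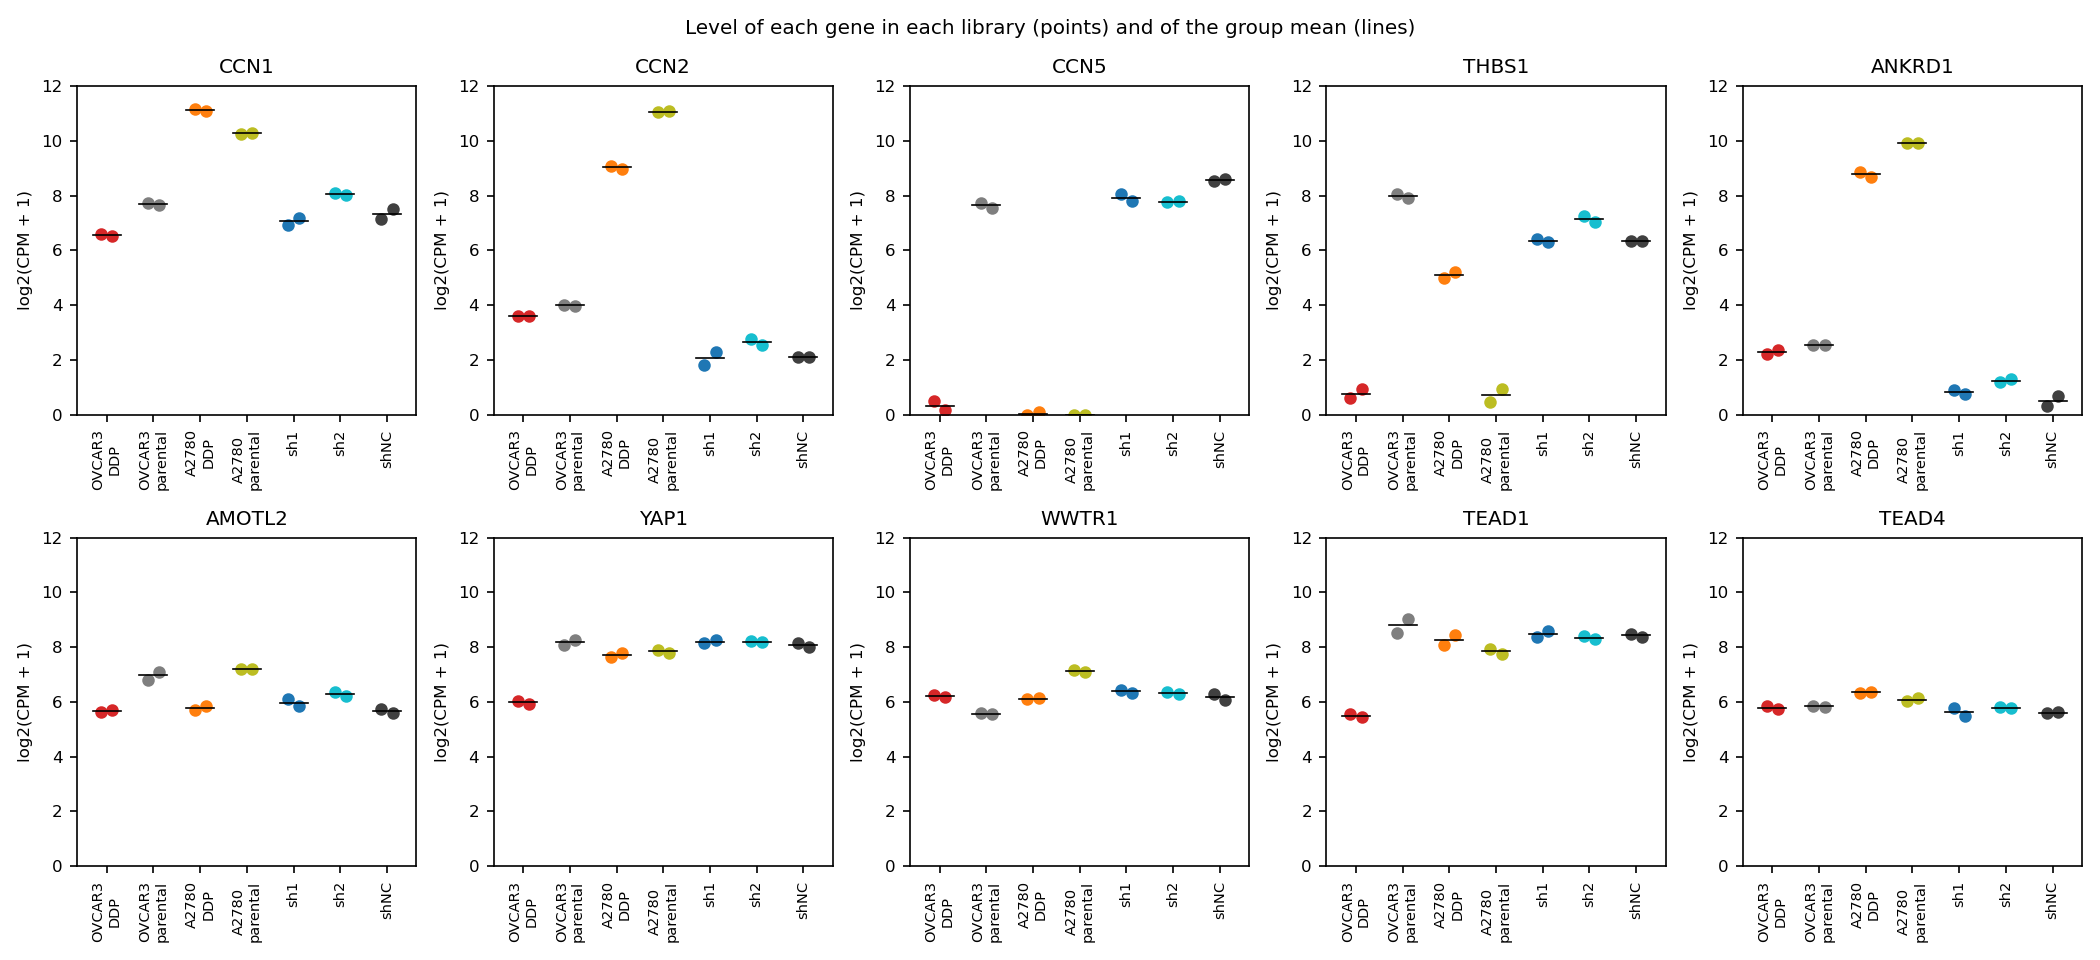
Level of each of the 10 genes as log2(CPM + 1), 1 panel a gene on a shared linear axis. Each point is 1 library, each line a group mean, with the resistant derivative left of its parental line and sh1 and sh2 left of shNC. CCN1, CCN2 and ANKRD1 are highest in the A2780 libraries, and CCN5 and THBS1 in OVCAR3 libraries other than those labelled OVCAR3-DDP.

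The coactivators came first. YAP1 (ENSG00000137693.14; GRCh38, GENCODE 29, chromosome 11, 102110461 to 102233423, plus strand, protein coding) had 64.3 and 60.3 CPM in the OVCAR3-DDP-labelled libraries, against 271 and 307 CPM in parental OVCAR3. Its level was called lower there, by log2 −2.39 (SE 0.10; edgeR adjusted p = 1.44e-10). In the 6 hairpin libraries YAP1 stayed between 257 and 307 CPM, and shNC against parental OVCAR3 gave 0.08 (SE 0.10; edgeR adjusted p = 0.499). A2780-DDP had 200.3 and 219 CPM and parental A2780 236 and 220.2 CPM, a difference of −0.11 (SE 0.09; edgeR adjusted p = 0.386) that did not pass. The OVCAR3-DDP-labelled libraries had the lowest YAP1 levels of the 14. An antisense gene on the opposite strand (ENSG00000254422) shares exon bases with YAP1 and ran from 11.3 to 58.4 CPM. The strand setting of the counting was not given in the sources used here, so reads from such a pair cannot be told apart.

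WWTR1 (ENSG00000018408.15; chromosome 3, 149517235 to 149736714, minus strand, protein coding) did not follow YAP1. It had 74.9 and 71.3 CPM in the OVCAR3-DDP-labelled libraries and 47.4 and 45.8 CPM in parental OVCAR3, and was called higher by log2 0.47 (SE 0.09; edgeR adjusted p = 0.000318). It was the only member of the 10 called higher in that comparison. In shNC it was also higher than in parental OVCAR3, with 76.2 and 67.0 CPM in shNC (log2 0.81, SE 0.11; edgeR adjusted p = 8.33e-07). A2780 went the other way, with 67.9 and 69.3 CPM in A2780-DDP and 141 and 137 CPM in parental A2780 (log2 −1.01, SE 0.09; edgeR adjusted p = 1.26e-06). The antisense gene WWTR1-AS1 shares exon bases with WWTR1 and ran from 10.9 to 33.9 CPM.

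Per kilobase of exon, the WWTR1 level within a library can be set beside that of YAP1. The ratio of WWTR1 to YAP1 was 0.878 ± 0.00880 in the OVCAR3-DDP-labelled libraries and 0.121 ± 0.0136 in parental OVCAR3 (SD, n = 2 each). A2780-DDP had 0.245 ± 0.0117 and parental A2780 0.456 ± 0.0114. The hairpin groups lay close together, at 0.210 with sh1, 0.203 with sh2 and 0.199 with shNC. YAP1 RNA was thus the more abundant of the coactivators per kilobase in each of the 7 groups.

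Among the TEAD factors, TEAD1 (ENSG00000187079.20; chromosome 11, 12674591 to 12944483, plus strand, protein coding) was, like YAP1, far lower in the OVCAR3-DDP-labelled libraries. It had 45.6 and 43.0 CPM there, against 363 and 524 CPM in parental OVCAR3, and was called lower by log2 −3.50 (SE 0.17; edgeR adjusted p = 7.24e-10). The parental libraries differed from each other by more than those of any other group for this gene. The hairpin libraries had 312 to 381 CPM, and shNC against parental OVCAR3 gave −0.18 (SE 0.13; edgeR adjusted p = 0.273). That value was called without parental OVCAR3 replicate 1 (log2 −0.41, edgeR adjusted p = 0.00974) and had the opposite sign without replicate 2. In A2780, TEAD1 had 269 and 349.6 CPM in A2780-DDP and 242 and 216 CPM in parental A2780 (log2 0.44, SE 0.15; edgeR adjusted p = 0.0354). This call was lost without parental A2780 replicate 1 (edgeR adjusted p = 0.0579), without its replicate 2 (0.141) and without A2780-DDP replicate 2 (0.175).

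TEAD4 (ENSG00000197905.10; chromosome 12, 2959330 to 3040673, plus strand, protein coding) varied least of the 10 genes, with library values from 43.8 to 81.8 CPM. The OVCAR3-DDP-labelled libraries had 56.3 and 51.9 CPM and parental OVCAR3 57.3 and 55.5 CPM, so the groups overlapped. The log2 value of −0.24 (SE 0.09; edgeR adjusted p = 0.0362) passed, but the call was lost in 10 of 12 alternatives, with edgeR adjusted p up to 0.306 (upper-quartile scaling), while the sign stayed negative in all 12. The shNC libraries had 46.8 and 48.5 CPM, and shNC against parental OVCAR3 gave −0.05 (SE 0.12; edgeR adjusted p = 0.741), a value that was positive in 4 of its alternatives. In A2780 the groups did not overlap, at 79.6 and 81.8 CPM in A2780-DDP and 64.4 and 69.0 CPM in parental A2780 (log2 0.28, SE 0.09; edgeR adjusted p = 0.0302). Without parental A2780 replicate 1 the adjusted p from edgeR was 0.192, and without A2780-DDP replicate 1 it was 0.0508.

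The balance of TEAD1 and TEAD4 therefore differed between groups. TEAD2 and TEAD3 are TEAD factors too and are not in this ratio. TEAD2 averaged 65.0 CPM in the OVCAR3-DDP-labelled libraries and 42.6 CPM in parental OVCAR3, and TEAD3 38.7 CPM and 26.0 CPM. Per kilobase, TEAD4 over TEAD1 was 5.52 ± 0.0905 in the OVCAR3-DDP-labelled libraries and 0.597 ± 0.166 in parental OVCAR3 (SD, n = 2 each). It was 1.20 ± 0.200 in A2780-DDP and 1.33 ± 0.173 in parental A2780, where the libraries overlapped. The hairpin groups were at 0.636 with sh1, 0.755 with sh2 and 0.630 with shNC. The parental OVCAR3 libraries had 0.715 and 0.480.

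**Figure D2:**
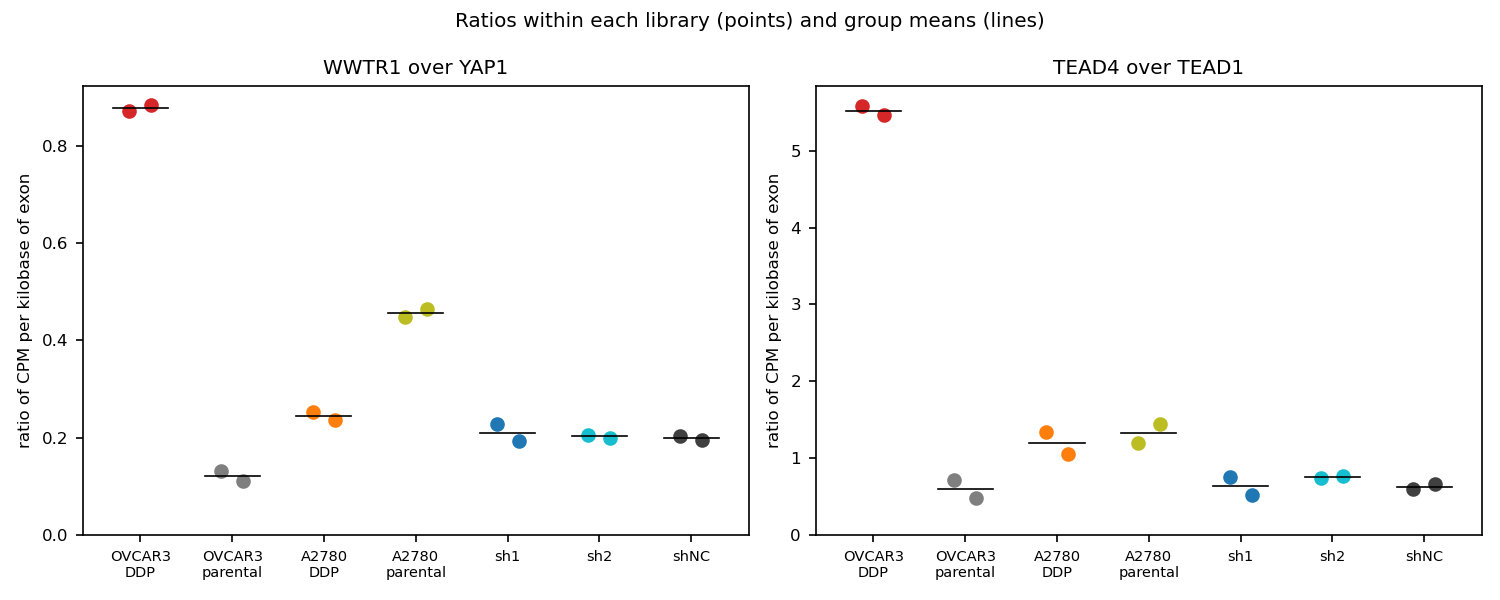
Ratio of WWTR1 to YAP1 (left) and of TEAD4 to TEAD1 (right) within each library, both per kilobase of exon, on linear axes from 0. Points are libraries and lines group means. The OVCAR3-DDP-labelled libraries sit at 0.878 and 5.52 on average, above all other groups in both panels.

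The matricellular targets CCN1 and CCN2 were both far higher in A2780 than in OVCAR3, but differed in how the DDP-labelled libraries stood against the parental ones. CCN1 (ENSG00000142871.18; chromosome 1, 85580761 to 85583962, plus strand, protein coding) had 2267 and 2176 CPM in A2780-DDP, against 1226 and 1243 CPM in parental A2780. It was called higher there by log2 0.86 (SE 0.08; edgeR adjusted p = 3.93e-06). The groups did not overlap. In the OVCAR3-DDP-labelled libraries it had 96.3 and 91.2 CPM, against 213 and 203 CPM in parental OVCAR3, and was called lower by log2 −1.33 (SE 0.09; edgeR adjusted p = 1.38e-08). The direction was opposite in the lines, and the OVCAR3 effect minus the A2780 effect was log2 −2.19 (SE 0.12; edgeR adjusted p = 6.04e-09). In shNC CCN1 had 141 and 182 CPM, and shNC against parental OVCAR3 gave −0.18 (SE 0.11; edgeR adjusted p = 0.199), which was called without shNC replicate 2 (edgeR adjusted p = 0.0172).

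CCN2 (ENSG00000118523.6; chromosome 6, 131948176 to 131951373, minus strand, protein coding) was lower in the DDP-labelled libraries of both lines. It had 547 and 504 CPM in A2780-DDP, against 2119 and 2173 CPM in parental A2780, a log2 fold change of −2.02 (SE 0.09; edgeR adjusted p = 1.91e-09). The OVCAR3-DDP-labelled libraries had 11.2 and 11.2 CPM and parental OVCAR3 15.1 and 14.7 CPM (log2 −0.59, SE 0.10; edgeR adjusted p = 0.000118). The shNC libraries were lower still, at 3.29 and 3.26 CPM, by log2 −1.995 (SE 0.15; edgeR adjusted p = 7.33e-11) against parental OVCAR3. Per kilobase of exon, CCN2 over CCN1 was 0.248 ± 0.00720 in A2780-DDP, against 1.82 ± 0.0150 in parental A2780 (SD, n = 2 each). Parental A2780 was the only group in which CCN2 exceeded CCN1 on that scale, and the ratio was 0.0210 to 0.126 in the OVCAR3 groups.

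ANKRD1 (ENSG00000148677.7; chromosome 10, 90912096 to 90921276, minus strand, protein coding), a nuclear ankyrin-repeat protein best known from heart muscle, moved with CCN2. It had 468 and 405 CPM in A2780-DDP and 968 and 956 CPM in parental A2780 (log2 −1.13, SE 0.10; edgeR adjusted p = 1.14e-06). In OVCAR3 it was scarce, with 3.62 and 4.15 CPM in the OVCAR3-DDP-labelled libraries and 4.82 and 4.78 CPM in parental OVCAR3. The difference of −0.48 (SE 0.13; edgeR adjusted p = 0.00527) was lost without OVCAR3-DDP replicate 1 (edgeR adjusted p = 0.0733) and with these groups fitted alone (0.113). The shNC libraries had 0.253 and 0.609 CPM, from 6 and 14 counts, and shNC against parental OVCAR3 was −3.28 (SE 0.26; edgeR adjusted p = 1.23e-10), or −4.06 without shNC replicate 2. Over the 7 group means of log2(CPM + 1), CCN2 and ANKRD1 had a Pearson correlation of 0.996, which describes mostly the gap between the lines.

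AMOTL2 (ENSG00000114019.15; chromosome 3, 134355874 to 134375479, minus strand, protein coding) was lower by nearly the same amount in the DDP-labelled libraries of both lines. It had 48.1 and 50.8 CPM in the OVCAR3-DDP-labelled libraries and 111 and 137 CPM in parental OVCAR3 (log2 −1.50, SE 0.11; edgeR adjusted p = 4.10e-08). A2780-DDP had 50.9 and 56.5 CPM and parental A2780 147.6 and 147.6 CPM (log2 −1.45, SE 0.11; edgeR adjusted p = 3.04e-07). The shNC libraries, at 52.4 and 47.5 CPM, were also below parental OVCAR3, by log2 −1.12 (SE 0.12; edgeR adjusted p = 4.44e-08). The difference between the lines was log2 −0.05 (OVCAR3 effect minus A2780 effect, SE 0.15; edgeR adjusted p = 0.820) and did not pass. A miss of the threshold does not show that the effects were equal.

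CCN5 and THBS1 had on-off patterns. CCN5 (ENSG00000064205.11; chromosome 20, 44714844 to 44728509, plus strand, protein coding) had 0.405 and 0.116 CPM in the OVCAR3-DDP-labelled libraries, from 14 and 4 counts, against 209 and 188 CPM in parental OVCAR3. The log2 fold change was −9.73 (SE 0.25; edgeR adjusted p = 9.84e-12), and it ran from −10.86 without OVCAR3-DDP replicate 1 to −9.10 without replicate 2. In shNC it stood at 365 and 389.5 CPM, above parental OVCAR3 by log2 1.12 (SE 0.13; edgeR adjusted p = 2.50e-07). A2780-DDP had 0 and 2 counts of CCN5 and parental A2780 had 0 in both libraries. Both groups lie at or under the floor of 3 counts per library, so no fold change is given for CCN5 in A2780. With so few counts the SE can understate the uncertainty, and fewer expressing cells and less RNA per cell cannot be told apart in bulk samples.

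THBS1 (ENSG00000137801.11; chromosome 15, 39581079 to 39599466, plus strand, protein coding) was nearly absent from opposite sides of the pairs. It had 0.521 and 0.900 CPM in the OVCAR3-DDP-labelled libraries, from 18 and 31 counts, against 262 and 238 CPM in parental OVCAR3 (log2 −8.63, SE 0.23; edgeR adjusted p = 3.47e-12). In A2780-DDP it had 30.9 and 36.0 CPM, against 0.385 and 0.917 CPM in parental A2780, from 12 and 30 counts (log2 5.67, SE 0.24; edgeR adjusted p = 1.29e-09). Without parental A2780 replicate 2 the A2780 value was 6.50. The shNC libraries had 79.8 and 79.6 CPM, below parental OVCAR3 by log2 −1.46 (SE 0.14; edgeR adjusted p = 4.21e-09). FSIP1 and THBS1-AS1 lie on the opposite strand and share exon bases with THBS1, and reached 19.8 and 5.90 CPM at most.

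**Figure D3:**
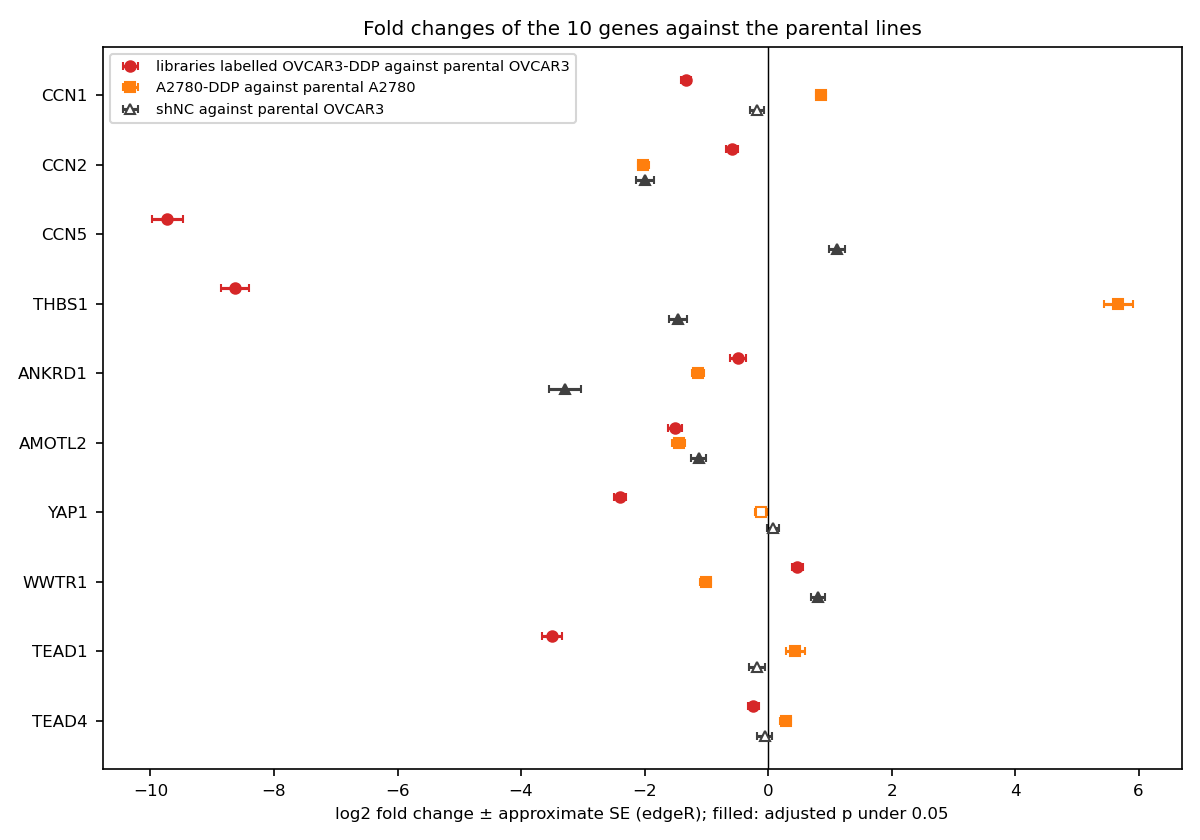
Log2 fold change of the 10 genes against their parental line, with an approximate SE, for the OVCAR3-DDP-labelled libraries, A2780-DDP and shNC. Filled symbols passed the edgeR adjusted p threshold of 0.05. CCN1, THBS1, TEAD1, TEAD4 and WWTR1 have opposite signs in the OVCAR3-DDP-labelled libraries and in A2780-DDP, CCN5 has no A2780 value, and shNC lies near 0 for YAP1, TEAD1 and TEAD4.

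In the OVCAR3-DDP-labelled libraries, 10 of the 10 members were called, 9 lower and 1 higher. Of all 23031 genes tested, 68.5% were called there, 33.4% higher and 35.2% lower, so a call in itself sets no gene apart, and the members' median log2 was −1.42, against −0.03 over all genes. In A2780, 8 of 10 were called, 4 higher and 4 lower, against 35.3% of all genes, 18.0% higher and 17.3% lower, with a members' median of 0.09 and 0 over all genes. The OVCAR3 calls of ANKRD1 and TEAD4 and the A2780 calls of TEAD1 and TEAD4 did not hold in all alternatives. With shNC against parental OVCAR3, 6 of 10 were called, 2 higher and 4 lower, against 51.5% of 24193 genes, 25.1% higher and 26.5% lower. The effects in OVCAR3 and A2780 differed from each other for 8 members whose fold changes are given in both lines, against 53.8% of all genes, 26.9% with a positive and 26.9% with a negative difference. The comparisons against parental OVCAR3 share those 2 libraries. Immediate early genes, which respond to serum and handling, summed to 2102 to 2159 CPM in the OVCAR3-DDP-labelled libraries and 902 to 960 CPM in parental OVCAR3. JUN alone averaged 1250 CPM in the OVCAR3-DDP-labelled libraries and 48.6 CPM in parental OVCAR3, so that gap does not describe the list as a whole. Of its 17 genes, 9 were called higher and 5 lower there, against 33.4% and 35.2% of all genes. FOS was among the lower, at 6.58 CPM against 26.1 CPM in parental OVCAR3. The sums of immediate early genes were higher still in shNC (3150 to 3232 CPM) and with sh1 (3292 to 3386 CPM) and sh2 (3488 to 3540 CPM). In A2780-DDP they were 1858 to 1879 CPM and in parental A2780 1092 to 1137 CPM. The part of handling in these results was not tested.

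The shNC libraries were also set against the OVCAR3-DDP-labelled libraries, since both carry that label. Of 24193 genes 69.7% were called, 32.9% higher and 36.8% lower in shNC, and of the 10 members 9 were called, 7 higher and 2 lower. CCN5 was higher in shNC by log2 10.77 (SE 0.24), THBS1 by 7.09 (SE 0.21), TEAD1 by 3.24 (SE 0.15), YAP1 by 2.40 (SE 0.10) and CCN1 by 1.08 (SE 0.11). CCN2 was lower in shNC by log2 −1.48 (SE 0.15) and ANKRD1 by −2.88 (SE 0.27). WWTR1 (0.26, SE 0.11; edgeR adjusted p = 0.0329) and AMOTL2 (0.31, SE 0.12; edgeR adjusted p = 0.0311) were called higher in shNC, but their libraries overlapped and each call was lost without single libraries. TEAD4 did not pass (edgeR adjusted p = 0.428). Libraries with a hairpin also had less mitochondrially encoded RNA, 7256 to 9474 CPM against 23067 to 35086 CPM in those without, and its part in these differences was not tested.

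Other genes of the pathway were read from lists, each described by its counts. LATS2 and PTPN14 are both in the list of other YAP targets and in that of the kinase core and its upstream regulators. The counts of these lists are therefore not separate. Of 18 other YAP target genes, 3 were called higher and 13 lower in the OVCAR3-DDP-labelled libraries, with a median log2 of −1.29 against −0.03 over all genes, of which 68.5% were called. In shNC against parental OVCAR3, 5 were called higher and 7 lower, against 25.1% and 26.5% of all genes, with a median of −0.13 against 0. IGFBP3, which binds insulin-like growth factors, had 0 counts in both OVCAR3-DDP-labelled libraries and averaged 153 CPM in parental OVCAR3. The ectonucleotidase gene NT5E averaged 0.0870 CPM in the OVCAR3-DDP-labelled libraries, 290 CPM in shNC and 34.3 CPM in parental OVCAR3. NT5E was thus lower in the OVCAR3-DDP-labelled libraries and higher in shNC (log2 3.27, SE 0.13; edgeR adjusted p = 5.74e-16) than in parental OVCAR3. The transcription factor FOXF2 was among the 3 called higher, at 85.7 CPM in the OVCAR3-DDP-labelled libraries and 41.3 CPM in parental OVCAR3 (log2 0.87, SE 0.13; edgeR adjusted p = 3.94e-05). In shNC FOXF2 went the other way, at 17.9 and 16.1 CPM (log2 −1.09 against parental OVCAR3, SE 0.14; edgeR adjusted p = 4.82e-07).

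In A2780, 4 of the 18 were called higher and 7 lower, with a median of −0.15 against 0 over all genes, of which 35.3% were called. IGFBP3 averaged 2.04 CPM in A2780-DDP and 231 CPM in parental A2780 (log2 −6.81, SE 0.18; edgeR adjusted p = 6.77e-11). The membrane-repair protein gene MYOF averaged 11.6 CPM in A2780-DDP and 334 CPM in parental A2780 (log2 −4.84, SE 0.21; edgeR adjusted p = 1.72e-09). The receptor tyrosine kinase AXL was called higher, at 22.5 CPM in A2780-DDP and 13.6 CPM in parental A2780, and so was FJX1, at 25.3 CPM in A2780-DDP and 11.97 CPM in parental A2780. MYOF was low in OVCAR3-DDP as well, at 1.33 CPM in the libraries with that label, 256 CPM in shNC and 316 CPM in parental OVCAR3. In shNC IGFBP3 averaged 1343 CPM, above the 153 CPM of parental OVCAR3 (log2 3.32, SE 0.12; edgeR adjusted p = 4.34e-16).

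**Figure D4:**
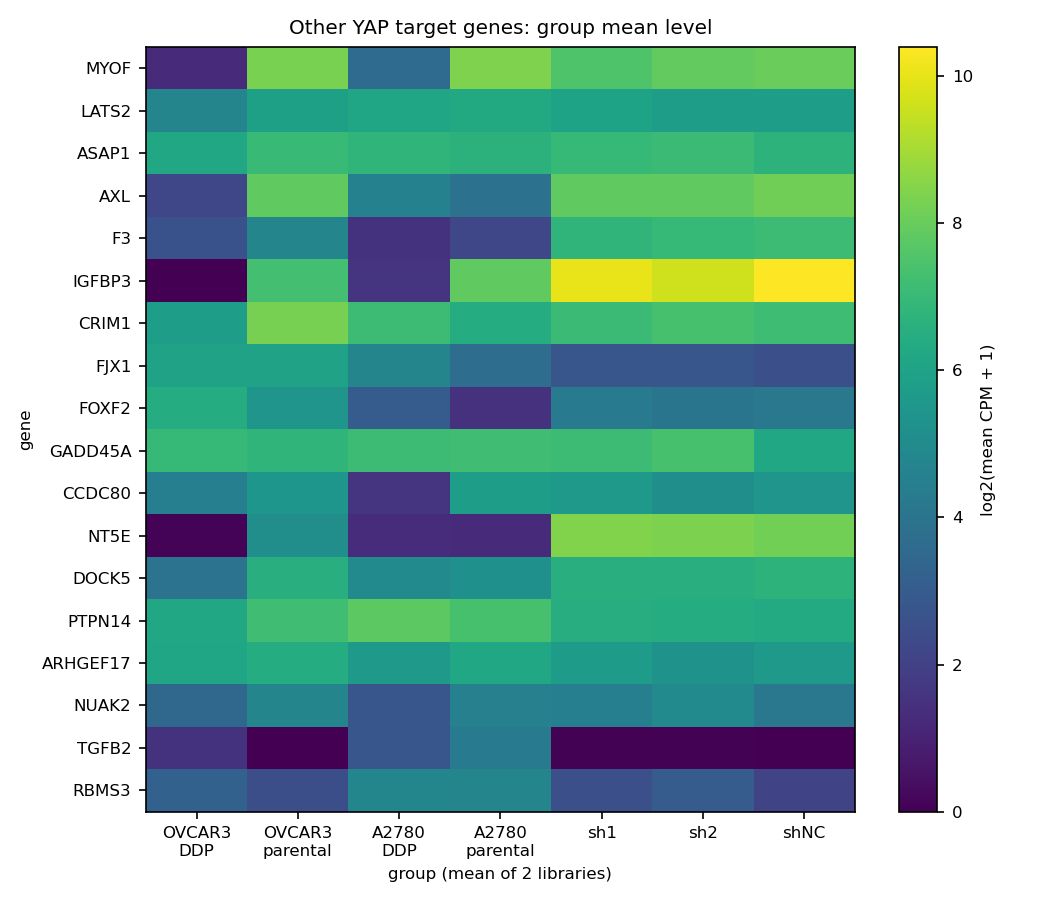
Group mean level of 18 other YAP target genes as log2(mean CPM + 1), 1 row a gene and 1 column a group of 2 libraries. Darker cells are lower. IGFBP3 is at 0 in the OVCAR3-DDP-labelled libraries and brightest in shNC, and MYOF is dark in both DDP columns.

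Of 20 genes of the kinase core and its upstream regulators, 5 were called higher and 8 lower in the OVCAR3-DDP-labelled libraries, with a median of −0.07, both near the 68.5% called and the median of −0.03 over all genes. AMOT, an angiomotin like AMOTL2, averaged 259 CPM in them, 2.59 CPM in shNC and 0.0852 CPM in parental OVCAR3. The kinase LATS2 was at 25.3 CPM in the OVCAR3-DDP-labelled libraries, 55.2 CPM in shNC and 58.3 CPM in parental OVCAR3 (OVCAR3-DDP against parental, log2 −1.38, SE 0.11; edgeR adjusted p = 9.51e-08). In A2780, 3 were called higher and 6 lower, against 18.0% and 17.3% of all genes, with a median of −0.19 against 0. NF2, the upstream tumour suppressor merlin, was at 482 CPM in A2780-DDP and 187 CPM in parental A2780 (log2 1.37, SE 0.11; edgeR adjusted p = 6.93e-07). The adhesion protein gene KIRREL1 averaged 4.76 CPM in A2780-DDP and 179 CPM in parental A2780.

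The other TEAD factors (TEAD2 and TEAD3) and the VGLL cofactors (VGLL1 to VGLL4) numbered 6, of which 5 were tested in these lines. In the OVCAR3-DDP-labelled libraries 4 of the 5 were called higher and 1 lower, against 33.4% and 35.2% of all genes. In A2780 2 were called, each lower, where 35.3% of all genes were called, 17.3% lower. VGLL4, which competes with YAP1 for TEAD, averaged 109 CPM in the OVCAR3-DDP-labelled libraries, 41.6 CPM in shNC and 36.4 CPM in parental OVCAR3 (OVCAR3-DDP against parental, log2 1.41, SE 0.09; edgeR adjusted p = 1.12e-08). VGLL3 was at 10.2 CPM in the OVCAR3-DDP-labelled libraries, 33.3 CPM in shNC and 97.5 CPM in parental OVCAR3 (OVCAR3-DDP against parental, log2 −3.44, SE 0.16; edgeR adjusted p = 4.41e-10). In A2780, TEAD3 was lower at 24.6 CPM in A2780-DDP and 45.9 CPM in parental A2780, and TEAD2 was lower at 53.8 CPM in A2780-DDP and 81.5 CPM in parental A2780.

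Of 9 receptors of CCN proteins and thrombospondins, 6 were called in the OVCAR3-DDP-labelled libraries, each lower, with a median of −1.29. Of all genes 68.5% were called there, 35.2% lower. The integrin subunit ITGB1 was at 90.9 CPM in them, 1190 CPM in shNC and 772 CPM in parental OVCAR3 (OVCAR3-DDP against parental, log2 −3.26, SE 0.09; edgeR adjusted p = 6.51e-12). In shNC against parental OVCAR3, 7 of the 9 were called, each higher, with a median of 1.00. Of all genes 51.5% were called in that comparison, 25.1% higher. LRP1, a scavenger receptor that takes up THBS1 and CCN2, was at 813 CPM in shNC and 221 CPM in parental OVCAR3. In A2780, 3 of the 9 were called higher and 2 lower, against 18.0% and 17.3% of all genes, with a median of 0.15. ITGA6 had a log2 fold change of 0.49 (SE 0.10) and SDC4 one of −0.50 (SE 0.10).

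Of 10 TGF-beta response genes, 1 was called higher and 6 lower in the OVCAR3-DDP-labelled libraries, near the 68.5% called over all genes, with a median of −0.365. In A2780-DDP 1 was called higher and 5 lower, against 35.3% of all genes, with a median of −0.49. In shNC against parental OVCAR3 9 were called, each higher, with a median of 0.85, where 51.5% of all genes were called, 25.1% higher. Of 10 genes of the SRF and MRTF program, which are the factors SRF, MRTFA and MRTFB and 7 genes of the actin cytoskeleton, 2 were called higher and 5 lower in A2780, against 35.3% of all genes, with a median of −0.35. The actin gene ACTA2 was at 6.55 CPM in A2780-DDP and 543 CPM in parental A2780, and TAGLN at 1054 CPM in A2780-DDP and 521 CPM in parental A2780.

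CCN5 was the 1 member called lower with both hairpins against ADAR1. With sh1, 1 of the 10 was called, against 3.81% of 19044 genes, 1.96% higher and 1.85% lower. With sh2, 4 were called, 3 higher and 1 lower, against 14.3% of genes, 7.23% higher and 7.04% lower. Without single shNC or sh1 libraries the genes called with sh1 numbered 89 to 4512, and without single shNC or sh2 libraries those called with sh2 numbered 303 to 1386. Members called with sh1 were 3 without sh1 replicate 2, and with sh2 they were 2 without shNC replicate 1, 1 without sh2 replicate 1 and 7 with sh2 and shNC fitted alone. The comparisons against shNC share its 2 libraries. CCN5 had 263 and 220.4 CPM with sh1 and 214 and 222 CPM with sh2, against 365 and 389.5 CPM with shNC. All 4 libraries with an ADAR1 hairpin lay below both shNC libraries. The log2 fold changes were −0.72 with sh1 (SE 0.11; edgeR adjusted p = 0.00147) and −0.90 with sh2 (SE 0.11; edgeR adjusted p = 0.000117), and their mean was −0.81 (SE 0.10; edgeR adjusted p = 5.60e-05). For that mean 3 members were called, 2 higher and 1 lower, against 11.9% of all genes, 5.94% higher and 5.98% lower.

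CCN1 was called higher with sh2 and lay on the other side of shNC with sh1. It had 122 and 144 CPM with sh1 and 271 and 259.6 CPM with sh2, against 141 and 182 CPM with shNC. The log2 fold change was −0.36 with sh1 (SE 0.13; edgeR adjusted p = 0.129) and 0.61 with sh2 (SE 0.13; edgeR adjusted p = 0.00453). The hairpins differed from each other by log2 0.97, sh2 over sh1 (SE 0.13; edgeR adjusted p = 0.000323), in a comparison where 1.92% of genes were called, 0.667% higher and 1.25% lower. The sh2 call was lost without shNC replicate 1 (edgeR adjusted p = 0.150) and without sh2 replicate 1 (0.0772), and sh1 was called lower without its replicate 2 (0.00410).

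THBS1 had 83.6 and 78.8 CPM with sh1 and 151 and 130.2 CPM with sh2, against 79.8 and 79.6 CPM with shNC. It was called higher with sh2 (log2 0.71, SE 0.12; edgeR adjusted p = 0.000918), and sh1 gave −0.05 (SE 0.12; edgeR adjusted p = 0.861). The hairpins differed by log2 0.76, sh2 over sh1 (SE 0.12; edgeR adjusted p = 0.00193). Without sh2 replicate 1 neither passed, with an edgeR adjusted p of 0.0646 against shNC and 0.112 against sh1. The mean of the hairpins passed narrowly (log2 0.33, SE 0.11; edgeR adjusted p = 0.0456), was carried by sh2 and did not pass in 8 of 13 alternatives.

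AMOTL2 had 67.6 and 56.1 CPM with sh1 and 81.2 and 73.9 CPM with sh2, against 52.4 and 47.5 CPM with shNC. It was called with sh2 (log2 0.53, SE 0.13; edgeR adjusted p = 0.0113) and for the mean of the hairpins (0.38, SE 0.12; edgeR adjusted p = 0.0361), which was lost in 4 of 13 alternatives (edgeR adjusted p up to 0.395). With sh1 it gave 0.23 (edgeR adjusted p = 0.341), called without sh1 replicate 2 (0.0235). The sh2 call was lost without shNC replicate 1 (0.0780), shNC replicate 2 (0.172) or sh2 replicate 1 (0.212). CCN2 had 2.48 and 3.86 CPM with sh1 and 5.87 and 4.78 CPM with sh2, against 3.29 and 3.26 CPM with shNC, and ANKRD1 0.706 to 1.48 CPM over the 4 ADAR1 hairpin libraries, against 0.253 and 0.609 CPM with shNC. Neither passed with sh2 (edgeR adjusted p = 0.123 and 0.0620, from at most 120 counts a library), while both were called with all 14 libraries in the fit (0.0334 and 0.00418).

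YAP1, WWTR1, TEAD1 and TEAD4 did not pass with either hairpin. YAP1 had 280.2 and 307 CPM with sh1 and 296 and 289 CPM with sh2, against 280.2 and 257 CPM with shNC. TEAD1 had 326 and 381 CPM with sh1 and 337 and 312 CPM with sh2, against 356 and 329.6 CPM with shNC. The log2 values of YAP1, WWTR1, TEAD1 and TEAD4 lay between −0.18 and 0.13 over both hairpins, with an SE of 0.11 to 0.13 each. TEAD1 with sh2, at −0.18, was called when sh2 and shNC were fitted alone (edgeR adjusted p = 0.0397).

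**Figure D5:**
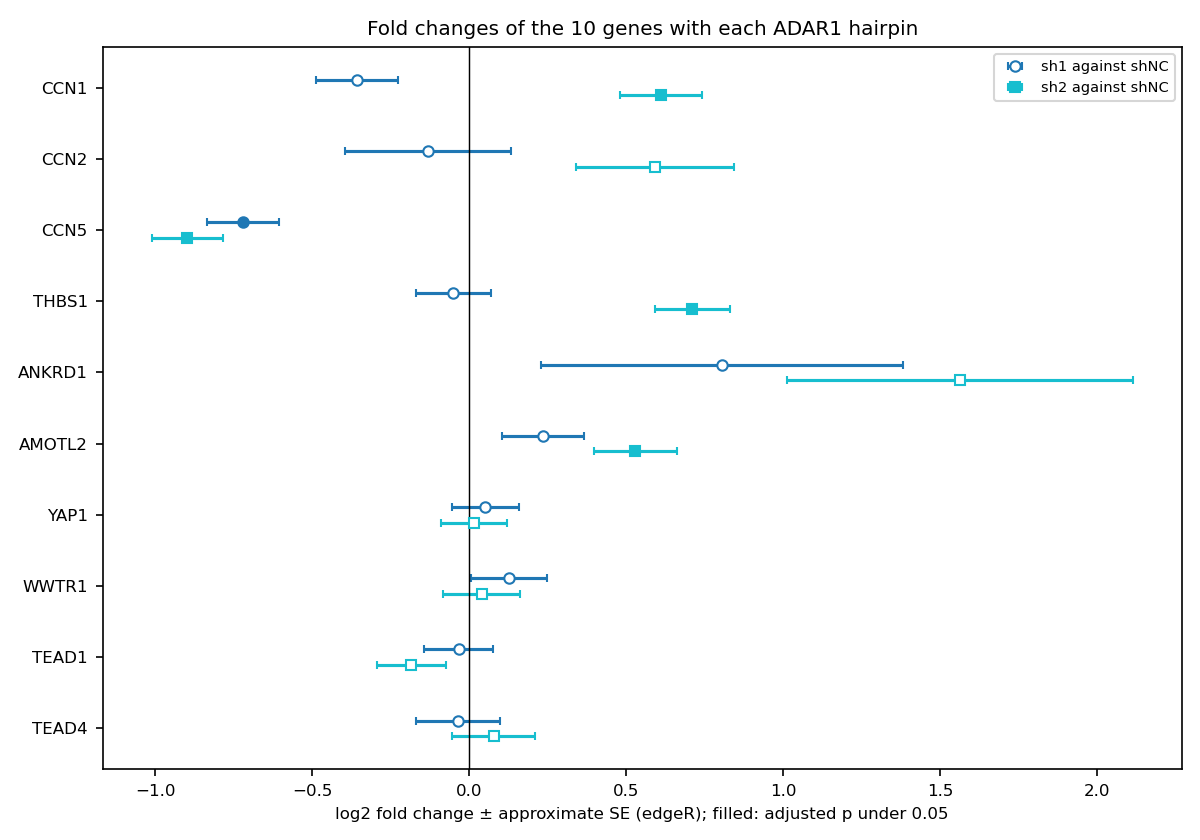
Log2 fold change of the 10 genes with sh1 and with sh2 against shNC, with an approximate SE. Filled symbols passed the edgeR adjusted p threshold of 0.05. CCN5 lies at −0.72 and −0.90 with both hairpins filled, CCN1 lies on opposite sides of 0, and YAP1, WWTR1, TEAD1 and TEAD4 lie near 0.

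Of the other YAP targets, 17 were tested in the hairpin libraries. With sh1, 1 was called higher and 2 lower, and with sh2, 3 higher and 2 lower, with medians of 0.06 and −0.11 against 0.02 and 0.00 over all genes. Of all genes 3.81% were called with sh1, 1.96% higher and 1.85% lower. With sh2 14.3% were called, 7.23% higher and 7.04% lower. The stress gene GADD45A averaged 137 CPM with sh1 and 164 CPM with sh2, against 71.6 CPM with shNC (log2 0.86 with sh1 and 1.09 with sh2, SE 0.12 each). IGFBP3 averaged 1044 CPM with sh1 and 797 CPM with sh2, against 1343 CPM with shNC (log2 −0.44 with sh1 and −0.86 with sh2, SE 0.10 each). The kinase NUAK2 was called higher with sh2, at 30.8 CPM with sh2 and 17.1 CPM with shNC. Of the 8 receptors tested, 1 was called with sh1 and 3 with sh2, each lower, against 1.85% and 7.04% of all genes. LRP1 averaged 410 CPM with sh2, against 813 CPM with shNC (log2 −1.09, SE 0.16; edgeR adjusted p = 0.000272), and the integrin subunit ITGB5 347 CPM with sh1 and 390.2 CPM with sh2, against 553 CPM with shNC. Of the 20 genes of the kinase core and its upstream regulators, LATS1 (log2 0.65, SE 0.15) and SAV1 (log2 0.47, SE 0.14) were called higher with sh2, against 7.23% of all genes. Of the 4 other TEAD factors and VGLL cofactors tested, 1 was called lower with sh1 and 1 higher with sh2, against 1.85% and 7.23% of all genes. TEAD2 averaged 14.7 CPM with sh1, against 32.9 CPM with shNC (log2 −1.24, SE 0.15; edgeR adjusted p = 6.35e-05), and VGLL3 63.1 CPM with sh2, against 33.3 CPM with shNC (log2 0.81, SE 0.19; edgeR adjusted p = 0.00760). TGFB1, the ligand that THBS1 can activate, averaged 380 CPM with sh2, against 574 CPM with shNC (log2 −0.70, SE 0.11; edgeR adjusted p = 0.000483). The mitochondrially encoded genes summed to 8564 to 8674 CPM with sh1 and 7256 to 7767 CPM with sh2, against 9250 to 9474 CPM with shNC, and their part in these values was not tested.

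The order of the 7 groups can be read for each member. CCN1 was highest in A2780-DDP and CCN2 and ANKRD1 in parental A2780, and the next group below did not overlap with the highest for any of them. CCN5 was highest in shNC, above sh1 and sh2, which overlapped each other, and parental OVCAR3 came after them. THBS1 was highest in parental OVCAR3, then sh2, and the sh1 and shNC libraries overlapped. YAP1 in sh1, sh2, parental OVCAR3 and shNC formed a run in which each group overlapped the next. TEAD1 formed such a run from parental OVCAR3 through sh1, shNC and sh2 to A2780-DDP. AMOTL2 in sh1, A2780-DDP, shNC and the OVCAR3-DDP-labelled libraries also overlapped from 1 group to the next.

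The genes most like each member were taken over the 7 group means of log2(CPM + 1), among 13337 genes that reached 10 CPM in some group. For CCN2 the closest was LINC01013 (Pearson r = 0.998), a long noncoding RNA at 156 CPM in A2780-DDP and 599 CPM in parental A2780. ANKRD1 came next (r = 0.996). CCN1 was closest to ZNF217 (r = 0.994), THBS1 to ROR2 (r = 0.992), YAP1 to MBNL1 (r = 0.996), TEAD4 to NABP2 (r = 0.993) and CCN5 to FSTL4 (r = 0.9996). AMOTL2 and WWTR1 had few close genes, 10 and 3 at an r of at least 0.95, against 525 for CCN5. Among the members, YAP1 and TEAD1 had an r of 0.979. These values describe 7 points that share the cell lines, and carry no test.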

How the data were processed

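Gene counts per library were used as deposited by the authors, made per the submitters' processing notes with FastQC 0.11.9, STAR 2.7.8a on GRCh38.p13, SAMtools and HTSeq 2.0.3. Per the labels' protocols, total RNA came from Trizol extraction. Not given in the sources used here: the annotation release and the strand setting. HTSeq's summary lines were left out of library sizes: reads on no gene were 48.7% to 50.0% of all reads and ambiguous reads 2.09% to 2.48%.

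Tests were edgeR 4.0.16 quasi-likelihood F-tests in R 4.3.3, with TMM scaling, filterByExpr at a minimum count of 10, Benjamini-Hochberg adjustment over all genes tested and a threshold of 0.05. The 8 libraries without a hairpin formed 1 fit (23031 genes tested), the 6 with a hairpin another (19044), and shNC was compared with groups without a hairpin in a fit of all 14 (24193). The SE is the fold change divided by the square root of F. All 10 members passed the filter in every fit. Replicates differed by more than counting noise (chi-square per gene 3.88 to 31.5), so none was a copy of the other's counts. This does not show that they came from separate cultures.

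The members and the gene lists were chosen with earlier results of these data known. From each list, up to 2 genes per direction were named: those called with the largest fold change, at 10 CPM or more in the higher group, whose replicates did not overlap. MYOF in OVCAR3 was named after its value was seen. Alternatives were DESeq2 1.42.0 (size factors or its Wald test), a floor of 5 CPM on the mean or no filter, upper-quartile scaling, other sets of fitted libraries, a replicate block, TMM-effective library sizes for levels, and leaving out each library. On simulated counts, a 2-fold change was recovered in 99% of changed genes for OVCAR3 DDP against parental (23031 genes), 98% for sh1 against shNC (19044) and 99% for shNC against parental (24193). The simulation changed 100 genes by 2-fold and 100 by 4-fold, up and down equally, all at a mean of at least 5 CPM. It left all others equal. It did not cover lower genes, such as ANKRD1 and CCN2 in the hairpin libraries, or data in which most genes change. Gene coordinates are from GENCODE 29. Figures and levels were made with Python 3.11.15, numpy 2.4.6, pandas 2.3.3 and matplotlib 3.10.9.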

Additional observations from a re-analysis of the deposited data

Results flagged for a closer look

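For 8 members the effect in OVCAR3 minus the effect in A2780, both DDP over parental, passed the edgeR interaction test, in which 53.8% of all genes passed. The difference was log2 −14.3 for THBS1 (SE 0.33; edgeR adjusted p = 3.28e-12), −3.94 for TEAD1 (SE 0.22; 8.00e-09), −2.28 for YAP1 (SE 0.13; 1.08e-08) and −2.19 for CCN1 (SE 0.12; 6.04e-09). THBS1, TEAD1 and CCN1 had opposite signs in the lines, while YAP1 passed in OVCAR3 only. WWTR1 differed by 1.48 (SE 0.12; edgeR adjusted p = 3.56e-07), higher in the libraries labelled OVCAR3-DDP and lower in A2780-DDP. CCN2 differed by 1.43 (SE 0.13; edgeR adjusted p = 7.67e-07) and ANKRD1 by 0.65 (SE 0.16; 0.00445), both with the larger drop in A2780-DDP. TEAD4 differed by −0.52 (SE 0.13; edgeR adjusted p = 0.00440), a call that was lost without parental A2780 replicate 1 (0.0559). All 8 rest on the libraries labelled OVCAR3-DDP, which differ from shNC under the same label, and resistance and that difference cannot be told apart here. No group had the 4 libraries needed to look for a library far from the others.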

How the results depend on the processing

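Of 1085 alternative fold changes of members, 996 kept their direction and their side of the threshold, 45 lost a call, 15 gained one and 29 changed sign. Genes called in OVCAR3 were 10267 and for shNC against OVCAR3-DDP 10343 with a mean of at least 5 CPM, which tests fewer genes (15784 and 16860 in the report's fits). With the compared groups alone, sh1 called 445 genes (725 in the report's fit), sh2 called 5874 (2717) with 7 members (4), and sh2 against sh1 called 192 (365). Sh2 against sh1 called 690 genes with no filter and 624 with DESeq2. The cause was not tested. Over the fits that left out 1 library, genes and members called ran from 13809 to 15656 and 8 to 10 in OVCAR3, 5429 to 7349 and 6 to 7 in A2780, and 10707 to 12575 and 8 to 9 for the line difference. They ran from 89 to 4512 and 1 to 3 for sh1, 303 to 1386 and 1 to 4 for sh2, 327 to 6318 and 1 to 3 for the mean of the hairpins, and 58 to 4286 and 1 to 4 for sh2 against sh1. For shNC they ran from 15003 to 15126 and 7 to 8 against OVCAR3-DDP and from 10038 to 11301 and 6 to 7 against parental OVCAR3. Hairpin counts were lowest without an shNC or sh2 library and, where sh1 was among the groups compared, highest without an sh1 library.

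All 29 sign changes were of values that had not been called, and none passed with the other sign. The line difference of AMOTL2 was 0.0534 with upper-quartile scaling and 0.0371 at a mean of at least 5 CPM. YAP1 with sh2 was −0.0109 with upper-quartile scaling and −0.0057 with all 14 libraries, and TEAD4 for the mean of the hairpins −0.00228 with all 14. TEAD4 for shNC against parental OVCAR3 was 0.0153 with DESeq2 size factors, 0.0321 with upper-quartile scaling, 0.0304 at a mean of at least 5 CPM and 0.0136 with DESeq2's Wald test. With single libraries left out, the line difference of AMOTL2 ran from −0.160 to 0.0870. With sh1, TEAD1 ran from −0.145 to 0.0503, TEAD4 from −0.222 to 0.111, CCN2 from −0.471 to 0.134 and YAP1 from −0.0116 to 0.0960. With sh2, YAP1 ran from −0.0312 to 0.0599 and WWTR1 from −0.0366 to 0.117. For the mean of the hairpins, TEAD4 ran from −0.0759 to 0.0938, CCN1 from −0.0607 to 0.338 and YAP1 from −0.0139 to 0.0779. For sh2 against sh1, YAP1 ran from −0.0839 to 0.0255 and TEAD4 from −0.0339 to 0.293. For shNC against parental OVCAR3, TEAD1 ran from −0.406 to 0.0851 and CCN1 from −0.393 to 0.00238, and both were called at the lower end.

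Upper-quartile scaling moved the median of all genes by log2 0.10 in OVCAR3 and by 0.11 for the line difference. Replicate numbers are shared between groups. Deviations of same-numbered libraries correlated at −0.31 to 0.511 over 21 pairs of groups, 4 of them over 0.1. The highest value was that of parental OVCAR3 with A2780-DDP, and whether same-numbered libraries shared a preparation was not tested. A replicate block changed 1 call of a member, THBS1 for the mean of the hairpins (log2 0.33, edgeR adjusted p = 0.0668). With 2 libraries a group, members of few counts (CCN5 and THBS1 where nearly absent, ANKRD1 with hairpins) are limited by depth.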
